A study of Mus musculus with 6 samples.

Results

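The genes described here are the 10 that encode the inhibitors of cyclin-dependent kinases and the retinoblastoma family of the mouse: Cdkn1a, Cdkn1b and Cdkn1c of the Cip/Kip family, Cdkn2a, Cdkn2b, Cdkn2c and Cdkn2d of the INK4 family, and Rb1, Rbl1 and Rbl2. They were chosen by name, as every probe on the array whose gene name is one of these symbols. This gave 16 of 55681 non-control probes, in 34 spots, and 15 of the 16 were bright enough to be tested, among 24833 tested probes in all. The other one, the second Cdkn2a probe, was not well above background on any array.

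RNA came from erythroid progenitors of mouse fetal liver at E14.5, isolated with the EasySep kit, infected with retrovirus and kept for 3 days in StemPro-34 medium with dexamethasone, erythropoietin and medium conditioned by kit ligand producing CHO cells, while they matured. In 3 samples the virus carried an shRNA against Exosc8 (shExosc8), and in 3 it carried an shRNA against luciferase, which mouse cells lack (shControl). Exosc8 is a subunit of the RNA exosome core, the complex that degrades RNA from its 3′ end. Both groups were infected with virus made in 293T cells, a human embryonic kidney line used for packaging. The labels give neither the number of Exosc8 hairpins nor a selection for infected cells, and do not say whether replicates were separate embryos or cultures, so p-values cover only how much these 6 samples vary, which may be technical variation. Total RNA was hybridised to 6 single-colour arrays, which measure RNA and not protein. Because the RNA is from whole cultures, a change in the share of cells of a type and a change in RNA per cell cannot be told apart.

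Cyclin-dependent kinases drive a cell through its division cycle. Cip/Kip proteins bind complexes of cyclins with these kinases, among them those of cyclin E and cyclin A with Cdk2, while INK4 proteins bind Cdk4 and Cdk6 alone and keep them from cyclin D. The kinases of G1 phosphorylate Rb1, Rbl1 (p107) and Rbl2 (p130), which otherwise hold E2F factors and keep the genes of DNA replication low. Erythroid precursors go through a few rapid divisions and then leave the cycle as they mature, and in mice loss of Rb1 impairs that step.

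Promoter windows reach from 250 bases before to 50 bases after an annotated start and come from RefSeq (GRCm38.p6). They were found for 8 of the 10 genes, in 11 windows. Shown are the windows of the 3 genes whose RNA rose (for Cdkn1a the upstream of its 2 windows) and that of Rbl1, the pocket protein gene whose start lies beside an E2F match. Capitals mark matches to the E2F motif (TTTCGCG or TTTGGCG) or to the p53 response element (by its name, as a pair of abutting decamers with at most 1 mismatch), on either strand.
Cdkn1a, chr17:29090729-29091028, plus strand: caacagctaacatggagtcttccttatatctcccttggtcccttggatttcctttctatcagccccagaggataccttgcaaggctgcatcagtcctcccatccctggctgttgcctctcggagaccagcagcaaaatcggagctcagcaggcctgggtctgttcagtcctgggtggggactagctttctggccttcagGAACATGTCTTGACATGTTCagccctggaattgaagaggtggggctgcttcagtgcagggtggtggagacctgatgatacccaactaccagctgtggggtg
Cdkn1b, chr6:134920151-134920450, plus strand: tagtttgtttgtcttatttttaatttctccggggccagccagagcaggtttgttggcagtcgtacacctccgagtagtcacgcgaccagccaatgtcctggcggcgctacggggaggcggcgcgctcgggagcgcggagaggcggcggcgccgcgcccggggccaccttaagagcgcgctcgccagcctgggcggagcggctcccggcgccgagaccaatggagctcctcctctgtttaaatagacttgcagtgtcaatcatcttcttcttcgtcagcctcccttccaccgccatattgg
Cdkn2d, chr9:21291160-21291459, minus strand: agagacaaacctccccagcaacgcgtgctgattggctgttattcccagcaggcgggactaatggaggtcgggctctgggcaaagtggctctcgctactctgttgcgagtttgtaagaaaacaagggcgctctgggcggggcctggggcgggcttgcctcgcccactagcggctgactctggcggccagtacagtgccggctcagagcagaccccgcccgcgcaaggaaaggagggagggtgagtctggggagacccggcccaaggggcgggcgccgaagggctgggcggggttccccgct
Rbl1, chr2:157204485-157204784, minus strand: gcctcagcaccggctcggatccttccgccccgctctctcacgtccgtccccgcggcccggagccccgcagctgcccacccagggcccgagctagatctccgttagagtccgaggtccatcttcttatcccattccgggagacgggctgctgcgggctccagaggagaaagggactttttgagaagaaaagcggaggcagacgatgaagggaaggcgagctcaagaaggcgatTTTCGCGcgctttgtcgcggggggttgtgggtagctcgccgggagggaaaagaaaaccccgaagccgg
The p53 element of Cdkn1a, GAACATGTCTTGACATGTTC, lay at -51 to -32 from the start of the upstream window. The other Cdkn1a window held no such element, and 0.0883% of the 32851 windows of all genes held one. The E2F match of Rbl1 lay at -18 to -12, and a second one stood in a window of Cdkn2c at -200 to -194, while 2.365% of all windows held one. A GC box (GGGCGG) was found in 9 of the 11 windows, including those of Cdkn1b and Cdkn2d, against 35.66% of all windows. The share of G and C in the 11 windows ran from 44% to 77%, against a median of 52.7% over all windows. The part of base content in the GC box share was not tested. The forkhead motif TGTTTAC was in none of the 11 and in 3.65% of all windows. These matches describe letters in the windows, not binding.

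Exosc8 itself was lower in every shExosc8 array. Its signal was 40.4%, 40.0% and 57.4% of the shControl mean in shExosc8 replicates 1, 2 and 3, against 98.5%, 97.8% and 103.9% in shControl replicates 1, 2 and 3. The log2 fold change was -1.14 ± 0.17 (SE, limma with Benjamini-Hochberg adjustment, adjusted p = 0.0061), which left 45.3% of the control level. In the authors' deposited table Exosc8 has a log2 fold change of -1.06 (adjusted p = 0.073). All 14 erythroid markers measured were above background on every shControl array. So were all 13 megakaryocyte and all 13 neutrophil and monocyte markers, so detection alone does not tell the cell type.

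Signals are given below on a scaled log2 scale, that is, the log2 of the background-subtracted spot signal after each array was brought to the same 75th percentile. The scanner software called 43.1% to 49.3% of non-control spots well above background on 5 of the arrays, but 67.3% on that of shControl replicate 2. The shExosc8 replicate 3 array correlated less with its own group (r = 0.985 and 0.990 across probes) than the other 2 did with each other (r = 0.996). All 6 arrays lay on 1 slide, with shExosc8 in row 2 and shControl in row 1, so slide row and treatment cannot be told apart. Across all probes, 6915 were called at an adjusted p under 0.05, 3645 higher and 3270 lower, and the median log2 fold change was -0.08.

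Within the family, RNA of 3 of the 10 genes was higher after Exosc8 depletion, that of 1 was lower, and that of 6 did not pass the test, taking the brightest probe of each gene. Cdkn1b, Cdkn2d and Cdkn1a rose 2.96-fold, 2.93-fold and 2.18-fold. Cdkn2a was lower, but near background. Its probe was tested only because it was above background in shControl, so a difference was built into its selection. Over all genes taken in this way, 28.4% were called, 15.6% higher and 12.8% lower. By probes, 6 of the 15 tested were higher (40%) and 1 was lower (6.67%), against 27.8% of all probes called, 14.7% higher and 13.2% lower. The 6 higher probes all read Cdkn1a, Cdkn1b or Cdkn2d, so they are repeat readings of the same 3 genes. The median log2 fold change of the 15 was 0.15. The 3 shExosc8 arrays did not overlap the 3 shControl arrays for 9 of the 15 tested probes, 6 of them higher and 3 lower, against 50.6% of all tested probes, 21.8% higher and 28.8% lower.

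**Figure D1:**
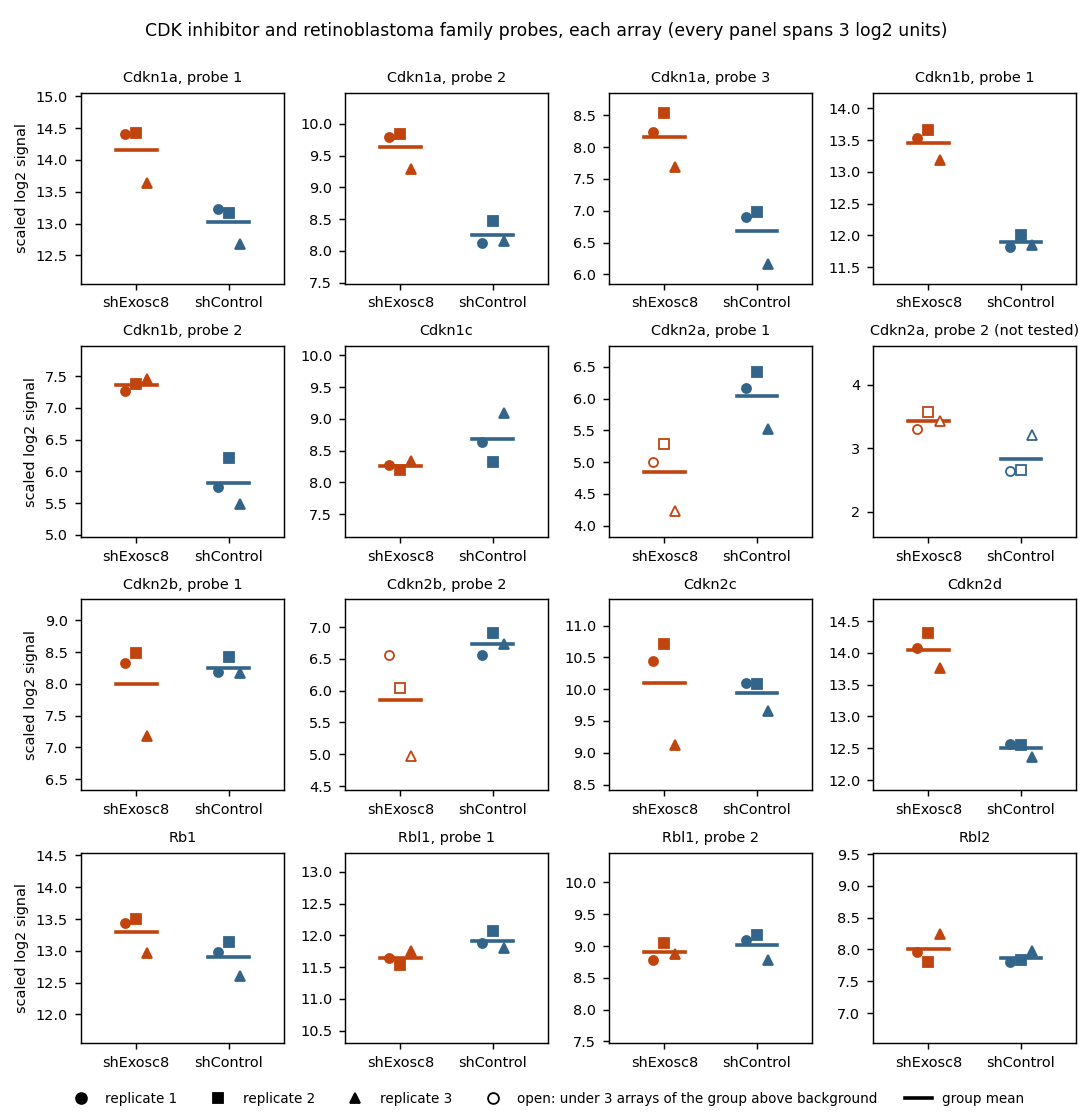
Scaled log2 signal (vertical axis, each panel spanning 3 log2 units) of the 16 probes in each array, shExosc8 left and shControl right. Points are single arrays, shaped by replicate, horizontal lines are group means, and open points belong to a group in which under 3 arrays were above background. The groups of Cdkn1b and Cdkn2d stand clear of each other by more than the spread within each.

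Cdkn1b, which encodes p27, an inhibitor that accumulates as many cell types leave the cycle, was the member with the smallest p. Its brighter probe, at chr6:134875424-134875483 (mm9, plus strand), had log2 signals of 13.53, 13.66 and 13.19 in shExosc8 replicates 1 to 3, against 11.82, 12.01 and 11.86 in shControl replicates 1 to 3. Every shExosc8 array was well above every shControl array. The means were 13.46 ± 0.24 in shExosc8 and 11.89 ± 0.10 in shControl (SD, n = 3 each). The fold change was 2.96 (95% interval 2.30 to 3.81), or 1.56 ± 0.15 on the log2 scale (limma, adjusted p = 0.0018). A dimmer probe 1.82 kb upstream, at chr6:134873606-134873665, read 7.26, 7.38 and 7.46 in shExosc8 against 5.76, 6.21 and 5.48 in shControl, again without overlap. It gave 1.55 ± 0.20 on the log2 scale (limma, adjusted p = 0.0041), so that both probes showed a rise of much the same size. The difference between the probes' fold changes was 0.02 (exact permutation test, p = 1.0). Both calls held with each array left out in turn, with log2 fold changes of 1.47 to 1.70 for the brighter probe and 1.38 to 1.75 for the dimmer one.

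Cdkn1a, which encodes p21, the Cip/Kip inhibitor known as a direct target of p53, was read by 3 probes, and all 3 rose. The brightest, at chr17:29237377-29237436 (mm9, plus strand), is printed in 10 spots and read 14.41, 14.42 and 13.63 in shExosc8, against 13.24, 13.16 and 12.68 in shControl. The groups did not overlap, and replicate 3 was the lowest of its group in both. The fold change was 2.18 (95% interval 1.40 to 3.40), or 1.13 ± 0.27 on the log2 scale (limma, adjusted p = 0.026). Within an array the 9 or 10 spots left after dropping outlier-flagged ones varied with an SD of 0.033 to 0.062 log2 units. That was far less than the arrays varied from each other. This call was lost when any array other than shExosc8 replicate 3 was left out (log2 fold change 0.95 to 1.23, adjusted p up to 0.0915), and without shExosc8 replicate 3 it stood at 1.39 (adjusted p = 0.0054).

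The second Cdkn1a probe, at chr17:29227986-29228045, lies 9.39 kb upstream of the first and is annotated on the array to transcript variant 2. It read 9.79, 9.84 and 9.29 in shExosc8, against 8.13, 8.47 and 8.16 in shControl. The groups did not overlap, and the log2 fold change of 1.39 ± 0.19 (limma, adjusted p = 0.0049) held with each array left out. Read by the third probe, at chr17:29235299-29235358, signals were 8.23, 8.54 and 7.69 in shExosc8 and 6.90, 6.98 and 6.16 in shControl. Its log2 fold change was 1.47 ± 0.30 (limma, adjusted p = 0.0169). This call was lost when shExosc8 replicate 1 (adjusted p = 0.0641) or replicate 2 (adjusted p = 0.0552) was left out. Between the first probe and the second, the log2 fold changes differed by -0.26 (exact permutation test, p = 0.3), and between the first and the third by -0.35 (p = 0.1 by the same exact test, the smallest that 3 against 3 arrays can give).

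Cdkn1c, which encodes p57, an imprinted inhibitor used in mouse by early committed erythroid progenitors, did not pass the test. It read 8.27, 8.19 and 8.33 in shExosc8 and 8.64, 8.33 and 9.10 in shControl, by a probe at chr7:150644753-150644812. The shExosc8 arrays lay close together at the low end, but the highest of them was level with the lowest shControl array. The log2 fold change of -0.43 ± 0.20 (limma, adjusted p = 0.153) had a 95% interval of -0.91 to 0.06. The upper end of that interval lies below the lower ends of 0.49 for the brightest Cdkn1a probe and 1.20 for that of Cdkn1b, a side-by-side reading of intervals and not a test between genes.

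Of the INK4 genes, Cdkn2d rose, Cdkn2a was lower, and Cdkn2b and Cdkn2c did not pass the test. Cdkn2d encodes p19INK4d, an inhibitor of Cdk4 and Cdk6. Its probe, at chr9:21092934-21092993 (mm9, minus strand), read 14.07, 14.32 and 13.76 in shExosc8, against 12.56, 12.56 and 12.37 in shControl. The lowest shExosc8 array stood far above the highest shControl array. Group means were 14.05 ± 0.28 in shExosc8 and 12.50 ± 0.11 in shControl (SD, n = 3 each), a fold change of 2.93 (95% interval 2.23 to 3.86) and a log2 fold change of 1.55 ± 0.16 (limma, adjusted p = 0.0024). The call held with each array left out, at 1.42 to 1.70.

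Cdkn2a encodes both p16INK4a and, from another first exon and reading frame, Arf, which restrains Mdm2. One of its probes, at chr4:88920405-88920464 (mm9, minus strand), was above background on 3 of 3 shControl arrays and on 0 of 3 shExosc8 arrays. It read 5.01, 5.28 and 4.23 in shExosc8 and 6.17, 6.42 and 5.52 in shControl, with no overlap. The level in shExosc8 is thus only a bound. It was set at the higher of the dimmest signal called above background on that array and the probe's own. With shExosc8 at that bound, Cdkn2a came out 1.46-fold lower, a value without an interval and not a minimum. The fall was smaller with normexp background correction and the percentile, at a log2 fold change of -0.18 (limma, adjusted p = 0.522). The fitted log2 fold change was -1.19 ± 0.34 (limma, adjusted p = 0.0443). The probe passed the filter on dim probes through shControl alone, so a difference was built into its selection. The call was lost without any one array except shControl replicate 3 (adjusted p = 0.0551 to 0.125, log2 fold change -1.41 to -0.89), and stood at -1.45 without shControl replicate 3 (adjusted p = 0.0456). A second probe, which starts 0.138 kb away, read 3.30, 3.58 and 3.42 in shExosc8 and 2.63, 2.66 and 3.21 in shControl, not well above background on any array, and was not tested.

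Cdkn2b encodes p15, an inhibitor that TGF-beta signalling raises in epithelial cells. Its brighter probe, at chr4:88952276-88952335, read 8.32, 8.48 and 7.18 in shExosc8 and 8.18, 8.42 and 8.17 in shControl. Here shExosc8 replicate 3 alone stood low, and the other 2 lay within or just above the shControl range. The log2 fold change of -0.26 ± 0.34 (limma, adjusted p = 0.585) turned to 0.15 without shExosc8 replicate 3 (adjusted p = 0.384). By the dimmer probe, above background on 2 of 3 shExosc8 arrays, the values were 6.56, 6.05 and 4.97 in shExosc8 and 6.56, 6.90 and 6.74 in shControl. That probe gave -0.88 ± 0.39 (limma, adjusted p = 0.132), and the gap between the probes' log2 fold changes was 0.62 (exact permutation test, p = 0.1).

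Cdkn2c encodes p18INK4c. It read 10.45, 10.70 and 9.12 in shExosc8 and 10.10, 10.08 and 9.66 in shControl, by a probe at chr4:109333508-109333567. In shExosc8, replicates 1 and 2 were above every shControl array, and replicate 3 was below them all. The log2 fold change was 0.15 ± 0.42 (limma, adjusted p = 0.803), with a 95% interval of -0.85 to 1.15 that holds changes of either sign. Without shExosc8 replicate 3 it was 0.63 (adjusted p = 0.0398), and without that array and shControl replicate 2 it was 0.70 (adjusted p = 0.0501), just short of the threshold.

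The 3 pocket protein genes did not pass the test, and their intervals hold smaller changes than those of Cdkn1b or Cdkn2d. Rb1, the retinoblastoma protein itself, was read in 10 spots at chr14:73595408-73595467 (mm9, minus strand), with 13.44, 13.49 and 12.97 in shExosc8 and 12.98, 13.13 and 12.60 in shControl. Replicate 3 was again the lowest array of each group, and the groups overlapped. The log2 fold change of 0.40 ± 0.20 (limma, adjusted p = 0.181) had a 95% interval of -0.10 to 0.89. Within an array the 8 to 10 Rb1 spots left after dropping outlier-flagged ones differed by an SD of 0.034 to 0.070 log2 units. Leaving out the 2 arrays that stand apart, shExosc8 replicate 3 and shControl replicate 2, gave 0.68 (adjusted p = 0.035).

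Rbl1 encodes p107, which is itself a target of E2F factors. It read 11.64, 11.53 and 11.76 in shExosc8 and 11.88, 12.08 and 11.80 in shControl, by a probe at chr2:156972143-156972202. All shExosc8 arrays were lower than all shControl arrays, by a narrow margin. The log2 fold change was -0.27 ± 0.12 (limma, adjusted p = 0.138, 95% interval -0.57 to 0.03). A second probe, 28.6 kb away and annotated to transcript variant 2, gave -0.11 ± 0.15 (limma, adjusted p = 0.597), from 8.78, 9.05 and 8.88 in shExosc8 and 9.09, 9.17 and 8.78 in shControl. Rbl2, which encodes p130, the pocket protein most bound to E2F in resting cells, read 7.96, 7.80 and 8.25 in shExosc8 and 7.80, 7.84 and 7.97 in shControl. The groups overlapped, and the log2 fold change was 0.13 ± 0.14 (limma, adjusted p = 0.502, 95% interval -0.21 to 0.48).

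**Figure D2:**
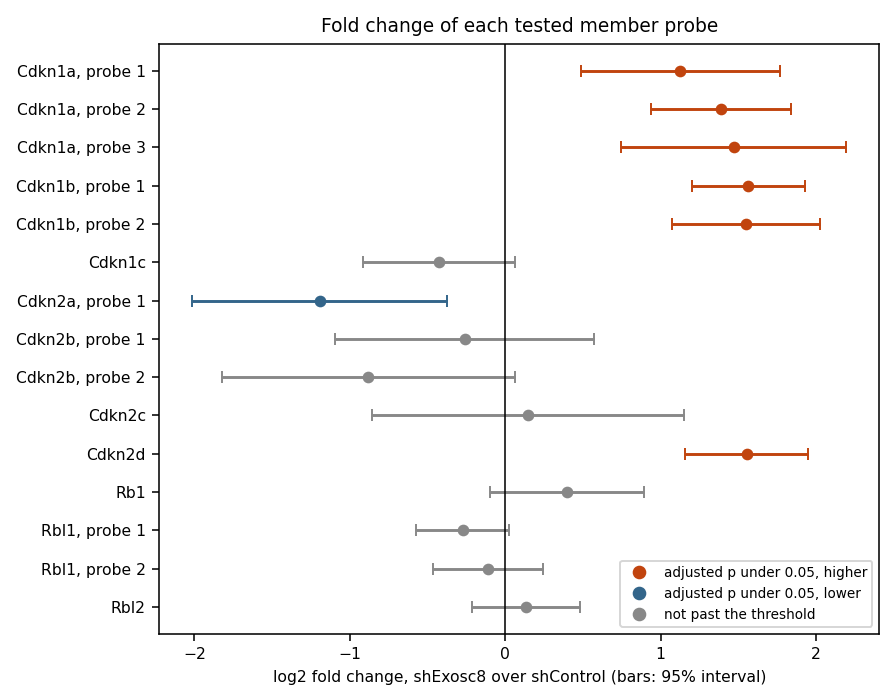
Log2 fold change of shExosc8 over shControl (horizontal axis) for the 15 tested probes, with 95% intervals from limma. The probes of Cdkn1a, Cdkn1b and Cdkn2d lie between 1.13 and 1.56 above 0, and those of the pocket proteins between -0.27 and 0.40.

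The rise of Cdkn1a, Cdkn1b and Cdkn2d had the same sign in all alternatives tried. Leaving out shExosc8 replicate 3 and shControl replicate 2 together, the brightest probes gave 1.46 for Cdkn1a, 1.76 for Cdkn1b and 1.73 for Cdkn2d, and 7 member probes were higher and 0 lower. Slide columns 2 and 3 each held 1 array of either group. Within column 2 the difference was 1.19 for Cdkn1a, 1.84 for Cdkn1b and 1.75 for Cdkn2d, and within column 3 it was 0.47, 1.18 and 1.21 for the same genes. When slide column was made a block, 1 residual degree of freedom remained and none of the 7 member calls held (limma, adjusted p = 0.0813 to 0.23). In the authors' deposited table, in which 3.34% of spots have an adjusted p under 0.05, that list includes Cdkn2d (log2 fold change 1.57, adjusted p = 0.0119) and both Cdkn1b probes (1.61 and 1.06, adjusted p = 0.0076 and 0.0365). The 10 Cdkn1a spots have log2 fold changes of 1.09 to 1.17 in the authors' deposited table, with adjusted p-values of 0.065 to 0.124. The other 2 Cdkn1a probes have 1.17 and 0.91 in the authors' deposited table (adjusted p = 0.0531 and 0.0574). Cdkn2a, by the probe called lower here, has -0.65 in the authors' deposited table and is not past the threshold (adjusted p = 0.275).

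**Figure D3:**
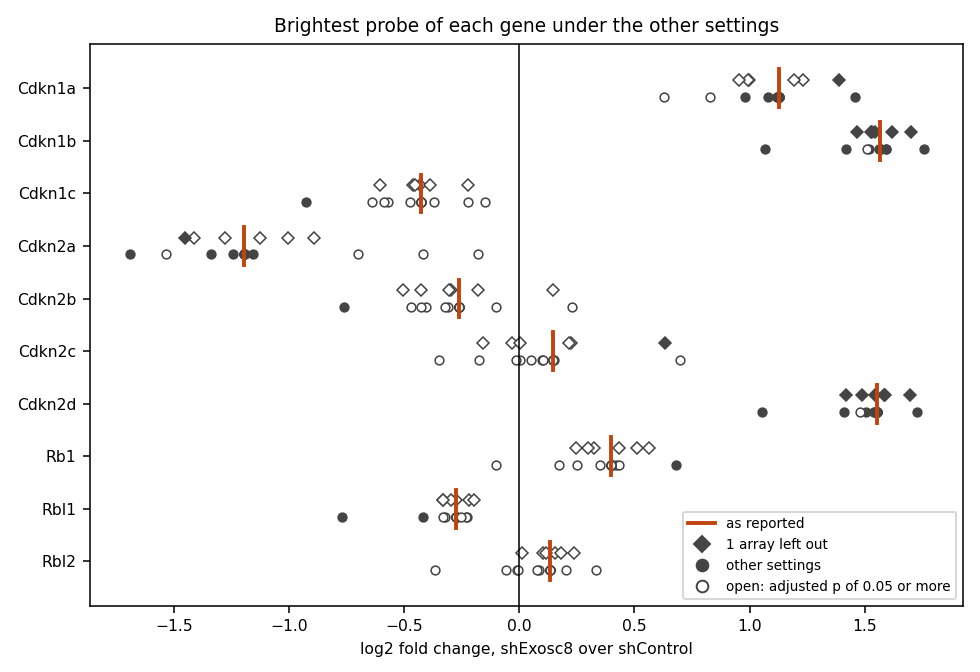
Log2 fold change of shExosc8 over shControl (horizontal axis) of the brightest probe of each gene under the alternatives tried. Vertical bars give the reported value, diamonds leave out 1 array, circles change another setting, and open symbols have an adjusted p of 0.05 or more. Cdkn1b and Cdkn2d stay above 1 throughout, and Cdkn2c lies on both sides of 0.

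The genes on which these proteins act were given as lists, read by the brightest probe of each gene and limma's adjusted p, against 15.6% of all genes higher and 12.8% lower. Of 9 tested G1 cyclins and kinases, 0 were higher and 3 were lower, with a median log2 fold change of -0.29, against -0.06 over all genes. Cdk6, a kinase held by INK4 proteins, was lower by a log2 fold change of -0.89 ± 0.16 (adjusted p = 0.011). The call held with each array left out, but not with normexp background correction and the percentile (-0.37, adjusted p = 0.0765), nor without the filter on dim probes (adjusted p = 0.0785). Cdk4, its close relative, gave -0.46 ± 0.11 (adjusted p = 0.027), and Cdc25a, the phosphatase that activates Cdk2, gave -0.63 ± 0.15 (adjusted p = 0.027). These 2 calls were lost when any array other than shExosc8 replicate 3 was left out (adjusted p up to 0.103). Cdk2 had a log2 fold change of -0.29 and did not pass (adjusted p = 0.168).

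Among the 10 E2F and DP factors, the partners of the pocket proteins, 2 were higher and 1 was lower, with a median of -0.06. E2f2, an activator abundant in erythroid precursors, rose by 1.07 ± 0.27 on the log2 scale (adjusted p = 0.030), and Tfdp2, a dimer partner of E2F factors, by 0.65 ± 0.17 (adjusted p = 0.033). E2f4, the factor most often bound by Rbl1 and Rbl2, was lower at -0.54 ± 0.12 (adjusted p = 0.024), and E2f1 gave -0.52 and did not pass (adjusted p = 0.085). The E2f4 call was lost in 5, that of Tfdp2 in 4 and that of E2f2 in 3 of the 6 fits that leave out 1 array, with adjusted p up to 0.107. None of 6 tested subunits of the DREAM and MuvB complexes, which Rbl1 and Rbl2 join, passed the test, with log2 fold changes from -0.33 for Mybl2 to 0.26 for Lin54; Rbbp4 gave 0.20 and Lin52 -0.18.

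Of 24 E2F target genes of the G1/S transition, 1 was higher and 3 were lower, and 20 did not pass, with a median of -0.30. Gins2, a part of the replicative helicase, gave -0.76 ± 0.18 (adjusted p = 0.027), and Cdc6, which loads that helicase, -0.61 ± 0.12 (adjusted p = 0.014). Rrm2, the small subunit of ribonucleotide reductase, rose by 0.85 ± 0.21 (adjusted p = 0.032). In the fits that leave out 1 array, Rrm2 lost its call in 5 of 6, Gins2 in 4 and Cdc6 in 2. Of 18 tested G2/M genes, Bub1b, a checkpoint kinase of mitosis, was lower at -0.52 ± 0.10 (adjusted p = 0.015, lost without shControl replicate 1 or 3, at adjusted p up to 0.0626), 0 were higher, and the median was -0.11. Bub1, Top2a and Aurka had log2 fold changes of -0.25, -0.29 and -0.21 and did not pass.

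p27, p21 and cyclin E are degraded through ubiquitin ligases. Of 9 tested genes of this kind, 0 were higher and 2 were lower, with a median of -0.20. Fbxw7, which targets cyclin E, gave -1.02 ± 0.16 (adjusted p = 0.0082), and Dtl, the receptor of the ligase that degrades p21 in S phase, -0.67 ± 0.12 (adjusted p = 0.011), and both held with each array left out. Skp2, which targets p27, had -0.42 ± 0.15 (adjusted p = 0.076) and Cul4a, the scaffold of the Dtl ligase, -0.39 ± 0.14 (adjusted p = 0.083), neither past the threshold.

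Cdkn1a was set beside p53, its regulators and its other targets. Of 9 regulators, p53 itself included, 1 was higher and 2 were lower, with a median of -0.17. Trp53, which encodes p53, gave -0.93 ± 0.13 (adjusted p = 0.0059), and Atm, the kinase that signals DNA breaks to it, -1.11 ± 0.15 (adjusted p = 0.0047), both lower with each array left out. Mdm2, both a target of p53 and its ubiquitin ligase, rose by 1.28 ± 0.34 (adjusted p = 0.035), a call lost without any array other than shExosc8 replicate 3 (adjusted p up to 0.114), and Chek1 gave -0.39 and did not pass. Among 22 tested p53 target genes, 6 were higher (27.3%), 1 was lower (4.55%) and 15 did not pass, with a median of 0.12. Gadd45a, a stress protein, rose by 3.06 ± 0.37 (adjusted p = 0.0034), Bbc3, the death factor Puma, by 2.41 ± 0.37 (adjusted p = 0.0072), and Sesn2, a sestrin that restrains mTORC1, by 1.75 ± 0.17 (adjusted p = 0.00197). Trp53inp1 rose by 1.93 ± 0.35 (adjusted p = 0.012), a call that missed the threshold when shExosc8 replicate 1 was left out (adjusted p = 0.0512), while the other 3 held.

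Of 7 tested upstream factors known to act on Cdkn1b and Cdkn2b, 1 was higher (14.3%), 2 were lower (28.6%) and 4 did not pass. Their median was -0.25, and of all genes 15.6% were higher and 12.8% lower. Foxo3, a forkhead factor that activates Cdkn1b, rose by 1.38 ± 0.40 (adjusted p = 0.047), Max, the partner of Myc, gave -0.49 ± 0.14 (adjusted p = 0.048), and Smad2, which carries TGF-beta signals, -0.48 ± 0.10 (adjusted p = 0.019). Foxo3 and Max lost their calls in 5 of the 6 fits that leave out 1 array and Smad2 in 4 (adjusted p up to 0.147), and Foxo1 gave 0.50 and did not pass. Of 10 tested polycomb proteins, the family known to silence Cdkn2a and Cdkn2b, 2 were higher and 0 lower, with a median of -0.02. Ezh1, a histone methyltransferase, rose by 1.08 ± 0.17 (adjusted p = 0.0077) and Cbx2, a chromodomain subunit, by 2.00 ± 0.33 (adjusted p = 0.0094), both with each array left out, whereas Ring1 and Bmi1 had -0.75 and -0.37 and did not pass.

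**Figure D4:**
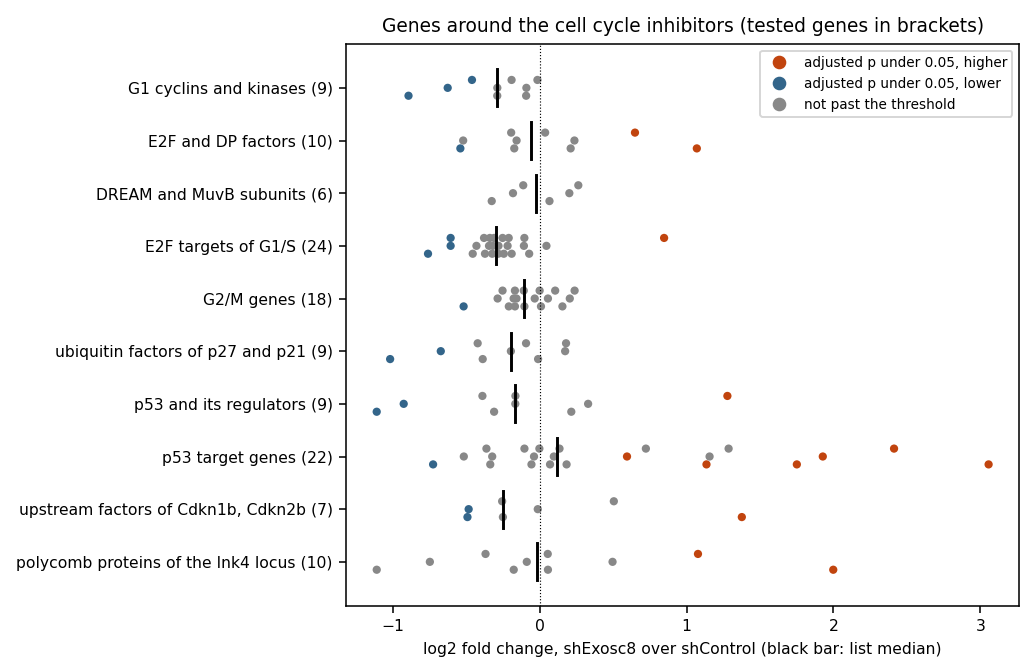
Log2 fold change of shExosc8 over shControl (horizontal axis) of each tested gene in 10 lists around the inhibitors, with the number tested in brackets and the list median as a black bar. Most genes of the E2F target and G1 lists lie a little below 0 without passing the test. Among the points far above 0 are Gadd45a, Bbc3, Trp53inp1 and Sesn2 of the p53 targets, and Cbx2.

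Markers of other cells were read in the same contrast, against 15.6% of all genes higher and 12.8% lower. With 16.7% of its tested genes higher, the lymphoid list lay near the share of all genes. All 13 megakaryocyte markers were higher, with a summed signal of 314954 to 427947 in shExosc8 arrays against 33867 to 49110 in shControl arrays; Gp1bb, Selp and Vwf, platelet adhesion proteins and the 3 of smallest p, had log2 fold changes of 3.92, 3.04 and 2.94, against a list median of 3.11. Of 13 neutrophil and monocyte markers 12 were higher (sum 304262 to 384615 against 123041 to 142146), of 8 tested macrophage markers 6 (sum 10374 to 11971 against 3360 to 4292, with Timd4 and Vcam1 above background on no array), and of 8 tested mast cell and basophil markers 5 (sum 16666 to 25092 against 5591 to 8552, with Fcer1a, Ms4a2 and Tpsab1 above background on no array). Hepatocyte markers were higher in 4 of 7 (sum 3744 to 4447 against 2324 to 2657, with Apob and Fgg above background on no array), endothelial and stromal ones higher in 2 and lower in 1 of 5 (sum 7435 to 8426 against 5876 to 5979, Cdh5, Col1a1 and Col3a1 above background on no array), and lymphoid ones higher in 1 of 6 (sum 3062 to 3185 against 2387 to 2665, Rag1 among those above background on no array). Of 14 erythroid markers 5 were higher and 1 was lower, with a sum of 1545418 to 2330532 in shExosc8 against 1109424 to 1346308 in shControl. Alas2 and Epb42, made by maturing red cells, gave log2 fold changes of 1.67 and 1.72. The erythroid list had a median of 0.52 and ran from -0.58 to 1.72, and 8 of its markers did not pass. The part of other cells and of maturation in the values of Cdkn1a, Cdkn1b and Cdkn2d was not tested.

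Around the members, 96 probes of other genes lie within 100 kb of a member probe (mm9), of which 47 were tested, 7 were higher and 4 were lower, against 27.8% of all probes called. Beside Cdkn1b, Crebl2, a bZIP protein whose probes lie upstream at -65.8 and -67.5 kb, rose by 1.51 ± 0.13 and 1.44 ± 0.22 on the log2 scale (limma, adjusted p = 0.0012 and 0.0067), about as much as Cdkn1b, and both calls held with each array left out. Lockd, a noncoding RNA whose probe lies 25.9 kb downstream of the brighter Cdkn1b probe, gave 0.11 and did not pass (adjusted p = 0.774). Near Cdkn1a, Cpne5, a copine, rose by 2.58 ± 0.20 (adjusted p = 9.7e-04) and Rab44 by 1.10 ± 0.31 (adjusted p = 0.042), and 1 of 3 probes of Srsf3, a splicing factor, gave -0.36 (adjusted p = 0.041). The 5 probes of lincP21, a noncoding RNA between Srsf3 and Cdkn1a, were too dim to be tested. Keap1, the adaptor that leads Nrf2 to degradation, has its probe at -57.2 kb from that of Cdkn2d. It was lower at -0.92 ± 0.13 (adjusted p = 0.0059), the opposite sign to its neighbour. Slc22a18 near Cdkn1c gave -0.74 (adjusted p = 0.034), 1 of 2 probes of Lpar6 near Rb1 0.52 (adjusted p = 0.049), Tldc2 near Rbl1 0.81 (adjusted p = 0.028), a probe without a gene name between the Rbl1 probes -0.82 (adjusted p = 0.026) and a noncoding probe near Cdkn1b 0.72 (adjusted p = 0.042). Those of Cpne5 and Keap1 held with each array left out, and the other neighbours named as called, Crebl2 apart, lost their call in 4 or 5 of the 6 fits.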

How the data were processed

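The deposited intensity values of 6 single-colour Agilent arrays were, per the file headers, background-subtracted and detrended within each array by Feature Extraction 10.7.3.1, and probe coordinates are on mm9. A deposited series table repeats these intensities (all 62976 features match to 0.01% on each array) and adds the authors' log2 fold changes and p-values. The submitters' processing notes name limma for these, and how the arrays were normalized for them is not stated in the notes or headers.

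Here control spots and outlier-flagged spots were left out, spots of 1 probe were averaged, and each array's 75th percentile was subtracted from log2 of the processed signal. Since only 38.8% of probes (21613) stood above background throughout, these alone set the percentile, and its mean over the arrays was added back. A probe was tested if every array of one of the groups or of both showed it well above background. The test was that of limma 3.58.1 (lmFit, eBayes, two-sided) in R 4.3.3, each probe on its own, with Benjamini-Hochberg adjustment over all 24833 and a threshold of 0.05. Samples were grouped by the treatment label. The number of arrays limits the precision, and 3 against 3 cannot give an exact permutation p below 0.1. The script was tested on simulated data.

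Names of 27495 probes came from RefSeq through the accession and 3549 through the symbol, and 24616 kept the name in the files. Named were all member probes, Exosc8, the 4 genes of smallest p in each pathway list, up to 3 marker genes for a list and called neighbours within 100 kb. Some genes that this rule names are not reported here. Members, lists and markers were chosen with earlier results of these data known, so no list was tested. Alternatives were other normalizations and background corrections, other filters, 1 probe a gene, an intensity trend, replicate or slide column as a block, each array left out, and, chosen after seeing the data, shExosc8 replicate 3 and shControl replicate 2 left out together.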

Additional observations from a re-analysis of the deposited data

How the results depend on the processing

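The count of changed probes, 6915 as reported, was 12532 without normalization between arrays, 1708 without the filter on dim probes, 407 with slide column as a block and 2860 to 10733 with 1 array left out (highest without shExosc8 replicate 3), and 5444 to 9390 in the others. The 7 changed member probes became 4 without the filter, 4 with 1 probe a gene, 0 with slide column as a block, 4 to 7 with 1 array left out and 10 without normalization. Exosc8 was past the threshold in all but the slide column block (-1.03, adjusted p = 0.142). Whether the replicate numbers pair the arrays cannot be settled with so few arrays. For equal numbers, the correlations of deviations from group means were 0.05, 0.21 and 0.28. In shExosc8, replicates 2 and 3 correlated best with the shControl array of their own number, but replicate 1 with shControl replicate 2 (0.125). With a replicate block, 7111 probes and 7 member probes were called. Of called probes 52.7% were higher as reported, against 35.4% with the percentile over all probes, 16.6% unnormalized, 68.0% with normexp and the percentile, 83.5% without the filter and 93.1% with slide column as a block. The median of all probes was -0.58 unnormalized, -0.23 with the percentile over all probes, -0.15 with quantile normalization and 0.04 with normexp and the percentile. Relative to the unnormalized median, Cdkn1b (1.65), Cdkn2d (1.64), Cdkn1a (1.21), Rb1 (0.48), Cdkn2c (0.23) and Rbl2 (0.22) were higher.

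Signs turned for Cdkn2b without shExosc8 replicate 3 (0.15, in a range of -0.51 to 0.15 with 1 array left out) and without the 2 arrays that stand apart (0.23). They turned for Cdkn2c unnormalized (-0.35), with normexp and quantile normalization (-0.013), with slide column as a block (-0.18) and without shExosc8 replicate 1 (-0.03) or 2 (-0.16), and stood at 0.70 without the 2 arrays. Rbl2 turned with the percentile over all probes (-0.011), quantile normalization (-0.059), unnormalized (-0.36) and without the 2 arrays (-0.0052), and reached 0.24 without shExosc8 replicate 2. Unnormalized, so did Rb1 (-0.10), Rbbp4 (-0.30) and Lin54 (-0.24), and with normexp and the percentile Chek1 (0.020) and the unnamed probe by Rbl1, A_55_P2060163 (0.042). None of these values had been past the threshold except that of the unnamed probe. Cdkn2a lost its call with normexp (-0.18 with the percentile and -0.42 with quantile normalization), without the filter, with an intensity trend and without the 2 arrays (-0.70, adjusted p = 0.0883). The brightest Cdkn1a probe lost its call unnormalized (0.63, adjusted p = 0.0697) and without the filter (adjusted p = 0.122). Trp53, Fbxw7, Dtl, Ezh1, Cbx2, Keap1 and the third Cdkn1a probe also lost theirs without the filter (adjusted p = 0.0546 to 0.0947), and Ezh1 unnormalized (0.58, adjusted p = 0.0691). With normexp and quantile normalization the dimmer Cdkn1b probe gave 0.82 and the third Cdkn1a probe 0.78, both still called. Rbl1 gained one with the percentile over all probes (-0.42, adjusted p = 0.0475) and unnormalized (-0.77, adjusted p = 0.0295). Unnormalized, Cdkn1c (-0.92) and both Cdkn2b probes (-0.76 and -1.38) were also called lower. The cause was not tested. Over all alternatives the changed genes numbered 0 to 19 of the E2F targets, 0 to 12 of the p53 targets, 0 to 6 each of the p53 regulators and G2/M genes, 0 to 5 each of the G1, E2F, ubiquitin, upstream factor and polycomb lists, 0 to 2 of DREAM, 11 to 13 of the megakaryocyte, 6 to 12 of the neutrophil, 3 to 7 of the macrophage, 2 to 7 of the mast cell, 0 to 9 of the erythroid, 0 to 5 of the hepatocyte, 1 to 3 of the endothelial and 0 to 2 of the lymphoid markers. Signal over background limits Cdkn2a and the dimmer Cdkn2b probe.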

Other observations

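The RefSeq promoter windows of the members held other short motifs at shares that are given as description. CCAAT was found in 4 of the 11 windows, among them those of Cdkn1b and Cdkn2d, against 37.41% of all windows. TTTGAA, the core of the CHR element bound by MuvB, stood in 2 of the 11, those of Cdkn2b and Rbl2, against 17.89%, and the E-box CACGTG in 1, a window of Cdkn2c, against 7.15%. The window of Cdkn2d held 5 GC boxes and that of Cdkn1b held 1. The share of G and C was 66.33% in the Cdkn2d window, 62% in that of Cdkn1b and 54.67% in the upstream window of Cdkn1a, against a median of 52.7% over all windows.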
